A study of Homo sapiens with 27 samples.

Results

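A set of 45 human genes that act in mitosis or in the spindle checkpoint was followed through 9 groups of cultured cancer cells. The members were chosen by gene symbol, from mitotic kinases and cyclins, the anaphase-promoting complex, kinetochore, spindle motors, cytokinesis and 2 transcription factors. Each symbol was matched through its Entrez ID to 1 row, which gave 45 of the 24566 rows of the count table. All 45 members passed the filter on low counts in every fit.

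Cells enter mitosis when cyclin B bound to the kinase CDK1 is freed of its inhibitory phosphates by CDC25 phosphatases, and Aurora and Polo-like kinases then build the spindle. The spindle checkpoint holds anaphase back until kinetochores are attached to microtubules. Once it is satisfied, CDC20 and the anaphase-promoting complex direct the destruction of securin and cyclin B, separase cuts cohesin, and the central spindle guides cytokinesis. Most of these genes are transcribed late in the cell cycle, under factors that include FOXM1, MYBL2 (B-MYB) and the MuvB complex.

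RNA was sequenced from A431, an established human epidermoid carcinoma line, and from MDA-MB-231, an established human adenocarcinoma line of breast origin, in 27 libraries of 3 biological replicates per group. Compound Kushen Injection (CKI) is a herbal extract made from the Kushen and Baituling plants. All groups are labelled with 48 h. A431 cells were left untreated or received the vehicle, CKI, doxorubicin (a DNA intercalator) or CKI together with doxorubicin. MDA-MB-231 cells were left untreated or received CKI, 5-fluorouracil (5-FU, which blocks thymidylate synthase) or CKI together with 5-FU. The concentration was 1.0 mg/ml for CKI, for which the labels of CKI alone give a dilution of 1 in 20, and 10 ug/ml for 5-FU. The dose of doxorubicin is left out because the labels list different concentrations without saying which was sequenced, and the composition of the vehicle is not given in the sources used here. No vehicle group of MDA-MB-231 was analysed here. A single line stands for each tumour type, and p-values measure the spread between replicate libraries of that line.

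Total counts ranged from 17757206 to 22809339 per library. KRT5, KRT14, KRT6A, TP63, CDH1 and DSG3, markers of keratinocyte-type cells, were at 56.9 CPM (counts scaled to the library size) or more in every A431 library and at 4.11 CPM or less in every MDA-MB-231 library. EGFR, on the same list, was at 908.9 CPM or more in A431 and at 159 to 383 CPM in MDA-MB-231. VIM and ZEB1 showed the reverse order, while the mesenchymal markers CDH2 and SPARC were near 0 in both lines. Of the other mesenchymal markers, AXL was higher in every MDA-MB-231 library and CD44 overlapped between the lines. Of the MDA-MB-231 libraries, untreated replicate 1 stood apart. It differed from the other untreated replicates with a chi-square of 70.8 and 81.8 per degree of freedom, against 2.65 between those 2, and values without it are given beside the results of MDA-MB-231. The vehicle replicates of A431 also differed from each other, with 9.9 to 28.3 per degree of freedom, against at most 5.46 within the other A431 groups. The sequenced RNA is a bulk sample, so that fewer cells in mitosis and less RNA per cell cannot be told apart.

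The members took a stable share of the library in most groups and a much smaller one in A431 cells that had received CKI. They made up 0.517%, 0.528% and 0.520% of all counts in untreated A431 cells. In the CKI libraries of A431 the share ranged from 0.163% to 0.170%. With doxorubicin alone it was 0.514%, 0.524% and 0.515%, and with CKI and doxorubicin together 0.214%, 0.218% and 0.214%. The libraries of the 2 A431 groups with CKI therefore lay below all other A431 libraries.

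In MDA-MB-231 cells no group had as small a share as the A431 groups with CKI. The untreated libraries held 0.745%, 0.635% and 0.626%, with replicate 1 the highest, and the CKI libraries held 0.644% to 0.656%. The range was 0.683% to 0.700% with 5-FU and 0.508% to 0.535% with CKI and 5-FU. The combination group was thus the lowest of the 4 and did not overlap with the other 3.

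**Figure D1:**
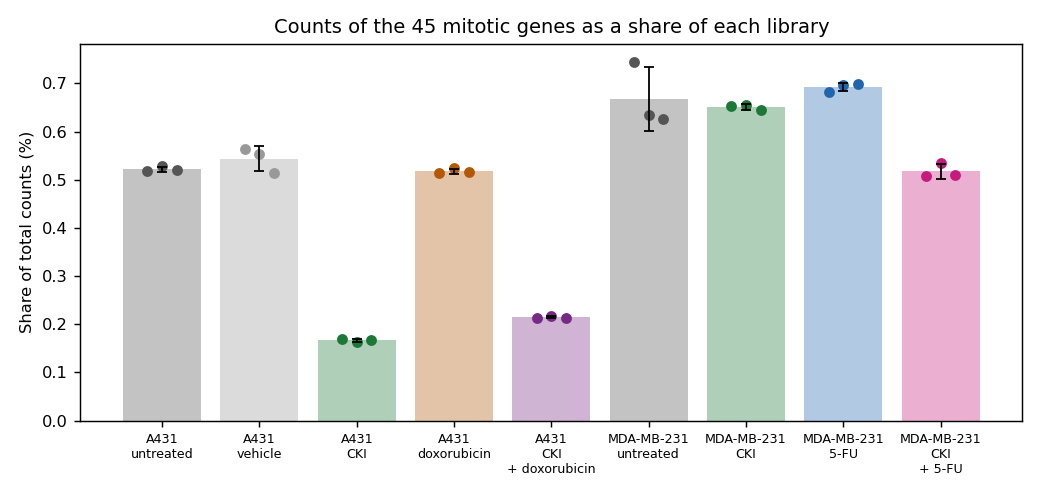
Counts of the 45 members as a percentage of all counts in a library (vertical axis), for the 9 groups. Points are the 3 libraries of a group, bars their mean and error bars 1 SD. The A431 libraries with CKI lie at 0.163% to 0.170% and those with CKI and doxorubicin at 0.214% to 0.218%, against 0.514% or more in all other A431 libraries.

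Levels of different members can be compared only per length, and RPKM, which divides CPM by the exonic length of a gene, was used for that. UBE2C, the ubiquitin-conjugating enzyme that works with the anaphase-promoting complex, had the highest mean level of the members in untreated A431 cells, at 222.6 RPKM. CDC20, the activator of that complex, followed at 156.2 RPKM and TPX2, which targets Aurora A to the spindle, at 103.0 RPKM. CENPE, a kinetochore motor, was the lowest at 6.08 RPKM. In untreated MDA-MB-231 cells UBE2C was again the highest, at 225.2 RPKM, and HMMR, a spindle assembly factor, the lowest, at 3.57 RPKM.

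Untreated A431 and MDA-MB-231 cells were compared first, to show the levels from which the treatments start. Of the 45 members, 1 was lower and 2 were higher in A431 at an adjusted p under 0.05 together with a log2 fold change beyond 1 in size (edgeR's quasi-likelihood test, used for all adjusted p-values here), where 20.4% of the 14848 genes tested were lower and 22.5% higher. The median log2 difference of the members was -0.27, and that of all genes tested 0.09. HMMR had 57.3, 66.0 and 68.6 CPM in untreated A431 and 17.5, 12.6 and 11.9 CPM in untreated MDA-MB-231, a difference of 2.25 log2 units (SE 0.135, adjusted p = 3.36e-09), where SE is the standard error. MYBL2 was higher in A431 by 1.06 log2 units (SE 0.121, adjusted p = 2.65e-06), and BUB3, a checkpoint protein that binds kinetochores, differed by -1.14 log2 units (SE 0.100, adjusted p = 1.89e-07). When replicate 1 of the untreated MDA-MB-231 cells was left out, no member was called lower and 1 was called higher, with a median difference of -0.09, and the differences were 2.45 for HMMR, 0.89 for MYBL2 and -0.99 for BUB3. At an adjusted p alone, 22 members were lower and 10 higher, where 36.7% and 41.9% of all genes tested were. The counts of members called here also changed when other libraries were left out, as given in the closing section.

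In A431 cells, CKI was compared with untreated cells to ask what 48 h of the injection does to the transcripts of mitotic genes. All 45 members were lower in the 3 CKI libraries than in any of the 3 untreated libraries, as were 35.4% of the 15881 genes tested, and 42 of the 45 passed both thresholds, where 10.4% of those genes were called lower and 12% higher. At an adjusted p under 0.05 alone, all 45 were lower, against 33.7% of all genes tested. None was called higher, either by edgeR at an unadjusted p under 0.05 or by DESeq2, which called 3588 genes in either direction. The median log2 fold change of the members was -1.90 and that of all genes tested 0.00, and the fold changes of the middle part of the list lay between -2.15 and -1.72 (quartiles).

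Of the kinases, cyclins and phosphatases of mitotic entry, 8 of 9 were called lower, with a median of -2.06. CDK1, the master kinase of mitotic entry, had 122, 136 and 125 CPM in the untreated libraries and 35.6, 35.4 and 34.9 CPM in the CKI libraries. It fell by 1.85 log2 units (SE 0.0726, adjusted p = 4.82e-16), or 3.61-fold. CCNB1, the cyclin that activates CDK1, had 228, 238 and 242 CPM untreated and 52.0, 50.1 and 50.1 CPM with CKI, and fell by 2.22 log2 units (SE 0.0591, adjusted p = 7.31e-19). The groups were far apart in both genes, with little spread among the CKI libraries.

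PLK1, the Polo-like kinase, went from 182, 172 and 202 CPM to 44.6, 45.6 and 43.0 CPM and fell by 2.06 log2 units (SE 0.0730, adjusted p = 8.94e-17). AURKA, the Aurora kinase of centrosomes and spindle poles, went from 180.3, 191 and 201 CPM to 51.6, 51.6 and 50.9 CPM and fell by 1.89 log2 units (SE 0.0575, adjusted p = 5.82e-18). CDC25C, a phosphatase that activates CDK1, had 22.7, 23.3 and 23.03 CPM untreated and only 4.84, 4.07 and 6.99 CPM with CKI, and fell by 2.12 log2 units (SE 0.143, adjusted p = 6.21e-12), with more relative spread among its low CKI values.

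CDC25B, the phosphatase that starts CDK1 activation at the centrosome, changed least of all members. Its level was 254, 237 and 239.7 CPM in untreated cells and 166, 171 and 168 CPM with CKI. The libraries did not overlap, but the log2 difference of -0.53 (SE 0.0627, adjusted p = 7.9e-08) did not reach the fold change threshold.

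Among the 5 members of the spindle checkpoint, 4 were called lower, with a median of -1.74. MAD2L1, which forms the inhibitor of CDC20 at unattached kinetochores, had 92.2, 102 and 99.1 CPM untreated and 24.6, 24.6 and 26.7 CPM with CKI and fell by 1.95 log2 units (SE 0.0744, adjusted p = 3.17e-16). TTK (MPS1), the kinase that starts checkpoint signalling, went from 75.01, 80.9 and 75.1 CPM to 21.9, 20.5 and 20.3 CPM and fell by 1.88 log2 units (SE 0.0788, adjusted p = 1.49e-15). Both groups of libraries were tight and well apart for these 2 genes.

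BUB1, a kinase at kinetochores, had 70.7, 74.8 and 78.7 CPM untreated and 34.0, 33.2 and 31.7 CPM with CKI, and fell by 1.18 log2 units (SE 0.0738, adjusted p = 1.81e-12). BUB3 had 181, 196 and 185 CPM untreated and 111, 106 and 110.3 CPM with CKI. Its log2 difference of -0.78 (SE 0.0557, adjusted p = 1.71e-11) stayed within the fold change threshold, so that BUB3 kept a larger part of its level than its partners BUB1 and BUB1B, which are listed at -1.18 and -1.74.

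All 4 members that drive the exit from metaphase were called lower, and their median of -2.36 was the lowest of the 8 roles. UBE2C went from 269.6, 294 and 294 CPM to 44.7, 44.8 and 45.7 CPM and fell by 2.67 log2 units (SE 0.0622, adjusted p = 1.33e-19), or 6.35-fold. CDC20 went from 301, 302 and 339.6 CPM to 57.6, 55.6 and 58.3 CPM and fell by 2.46 log2 units (SE 0.0620, adjusted p = 3.54e-19). PTTG1 (securin, the inhibitor of separase) went from 115, 123 and 128 CPM to 32.6, 31.5 and 32.3 CPM and fell by 1.92 log2 units (SE 0.0726, adjusted p = 2.57e-16). No CKI library came near an untreated one in any of them, and ESPL1, which encodes separase, fell by 2.26 log2 units (SE 0.0798, adjusted p = 8.57e-17). PTTG1 has a near-identical copy, PTTG2, with which reads may have been shared.

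The chromosomal passenger complex corrects wrong kinetochore attachments, and its 4 members were all called lower, with a median of -2.15. AURKB, its kinase, had 95.6, 99.4 and 103 CPM untreated and 18.1, 17.7 and 17.4 CPM with CKI and fell by 2.48 log2 units (SE 0.0710, adjusted p = 2.14e-18). BIRC5 (survivin), which targets the complex to centromeres, went from 77.2, 75.8 and 86.3 CPM to 17.9, 16.3 and 16.9 CPM and fell by 2.23 log2 units (SE 0.0801, adjusted p = 1.2e-16). The scaffold INCENP changed less than its partners, from 115, 104 and 120.1 CPM to 49.2, 50.7 and 49.6 CPM, and fell by 1.18 log2 units (SE 0.0813, adjusted p = 9.07e-12). Its treated and untreated libraries were still apart.

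All 7 kinetochore and centromere members were called lower, between -2.34 (SPC25) and -1.68 (CENPE). CENPA, the histone H3 variant that marks centromeres, had 24.0, 22.1 and 23.9 CPM untreated and 7.65, 5.51 and 6.51 CPM with CKI, and fell by 1.83 log2 units (SE 0.105, adjusted p = 3.82e-13). NDC80, the microtubule-binding subunit of the outer kinetochore, went from 58.5, 64.5 and 61.3 CPM to 13.6, 14.9 and 15.1 CPM and fell by 2.08 log2 units (SE 0.0882, adjusted p = 1.82e-15). The other subunits of the same complex, NUF2, SPC24 and SPC25, had log2 fold changes of -2.15, -2.22 and -2.34, so that all 4 subunits lay within a narrow range.

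The 8 spindle motors and assembly factors were all called lower, with a median of -1.74. KIF11, the motor that pushes spindle poles apart, had 112, 123 and 122 CPM untreated and 41.6, 35.8 and 36.5 CPM with CKI and fell by 1.65 log2 units (SE 0.0724, adjusted p = 3.27e-15). TPX2 went from 355, 362 and 397 CPM to 107, 113 and 114 CPM and fell by 1.74 log2 units (SE 0.0606, adjusted p = 6.67e-17), and KIF2C, a microtubule depolymerase at centromeres, went from 149.7, 153 and 168 CPM to 32.4, 32.2 and 32.3 CPM and fell by 2.28 log2 units (SE 0.0639, adjusted p = 1.66e-18). KIF2C had the largest fall of this role and KIF11 the smallest. For NUSAP1, 86.8% of the annotated exonic bases are shared with other genes, and the counting is not stated to use strand, so its value is uncertain.

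Among the 6 genes of the central spindle and of cytokinesis, 5 were called lower, with the widest range of any role. KIF20A, a motor that carries the passenger complex to the central spindle, had 87.6, 99.6 and 100.2 CPM untreated and 14.1, 13.7 and 16.3 CPM with CKI. It fell by 2.71 log2 units (SE 0.0823, adjusted p = 6.05e-18), or 6.53-fold, the largest change of the 45. ANLN (anillin), which scaffolds the contractile ring, went from 230.2, 243 and 242 CPM to 82.5, 78.1 and 80.9 CPM and fell by 1.56 log2 units (SE 0.0642, adjusted p = 1.05e-15).

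ECT2, the exchange factor that activates RhoA at the cleavage site, had 158, 162 and 168 CPM untreated and 90.5, 84.7 and 91.1 CPM with CKI, and its log2 difference of -0.88 (SE 0.0682, adjusted p = 8.05e-11) missed the fold change threshold. PRC1 shares 61.9% of its annotated exonic bases with other genes, and KIF4A has the near-identical copy KIF4B, which leaves their values uncertain.

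Both transcription factors were called lower. FOXM1 had 94.6, 88.2 and 100.9 CPM untreated and 22.9, 22.9 and 23.2 CPM with CKI and fell by 2.04 log2 units (SE 0.0724, adjusted p = 9.21e-17). MYBL2 went from 247, 247 and 269 CPM to 47.5, 49.5 and 52.5 CPM and fell by 2.35 log2 units (SE 0.0690, adjusted p = 3.52e-18). Both fell by more than the median member.

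**Figure D2:**
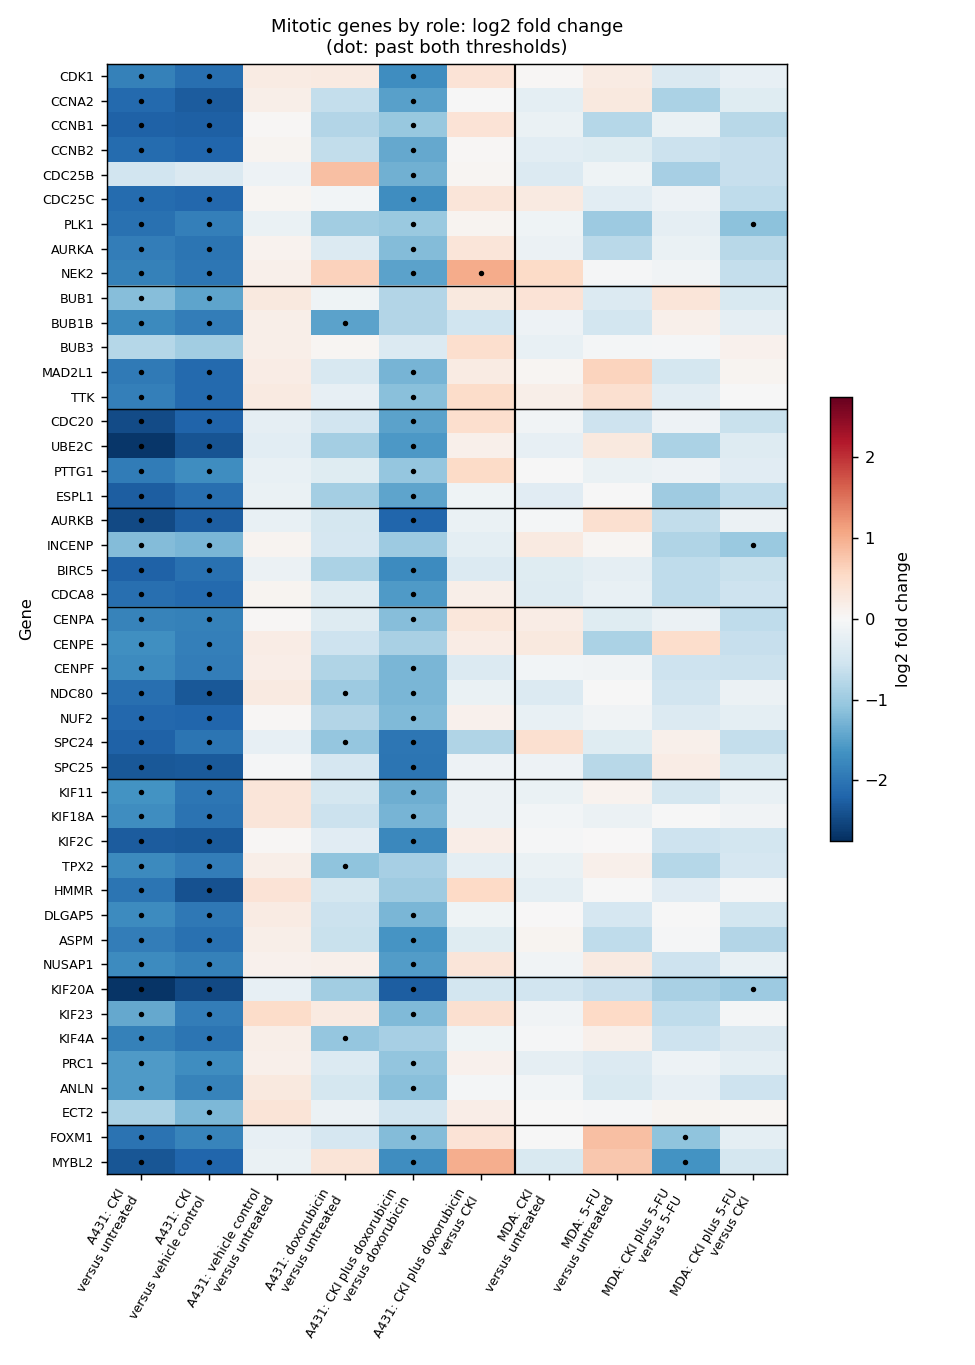
Log2 fold change (colour) of each of the 45 members (rows, grouped by role between horizontal lines) in 10 comparisons (columns), with A431 left of the vertical line and MDA-MB-231 (MDA) right of it. Dots mark members past both thresholds, which are 42 of 45 for CKI against untreated A431 cells and none for CKI against untreated MDA-MB-231 cells.

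The vehicle control was used to ask how much of this a vehicle alone would give. Against untreated A431 cells, DESeq2 called no member in either direction, among 351 genes called. In edgeR no member passed both thresholds either, where 1.5% of all genes tested were lower and 1.05% higher. At an unadjusted p under 0.05, 12 members were lower and 21 higher, and at an adjusted p alone 10 were lower and 15 higher, where 19.3% and 23.2% of all genes tested were. The median of the members was 0.12, and it became -0.030 when GC content and transcript length were taken into account, so that it had no stable direction. KIF23, a motor of the central spindle, had the largest difference, with 114, 112 and 113 CPM untreated and 169, 163 and 146 CPM in the vehicle control. That is a rise of 0.50 log2 units (SE 0.0655, adjusted p = 4.8e-06), below the fold change threshold, and it lay between 0.46 and 0.56 when 1 vehicle replicate was left out.

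Against the vehicle control, 43 of the 45 members were called lower with CKI, where 8.22% of all genes tested were called lower and 11.3% higher, with a median of -2.01. The exceptions were CDC25B at -0.40 and BUB3 at -0.95, and ECT2, at -1.23, passed both thresholds here. Both comparisons use the same CKI libraries, and they are given side by side for that reason. KIF20A, at 87.5, 80.6 and 76.3 CPM in the vehicle control, differed by -2.47 against it and by -2.71 against untreated cells.

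The promoters of the members were searched for the letters of 2 elements known from late cell cycle genes. The cell cycle genes homology region (CHR) was searched as TTTGAA and TTCGAA, and the CCAAT box, bound by NF-Y, as CCAAT, each on both strands, from 250 bases before to 50 bases after the start of the gene. RefSeq sequences of GRCh38.p14 held an entry for 38 of the 45 members. Only the first listed entry of each member was searched, so letters at another start site of the gene would be missed. The 35116 promoters were not reduced in this way, so that the shares of members and of all promoters count unlike units. CHR letters were found in 26 of the 38 (68.4%), against 16.4% of 35116 promoters, and a CCAAT box in 29 of the 38 (76.3%), against 34.6%. Both were present in 57.9% of the members and in 6.38% of all promoters. A match is a description of the letters and not a shown binding site.

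The members with CHR letters did not have the lower median. The median log2 fold change under CKI in A431 was -1.84 for the 26 members with CHR letters and -2.17 for the 12 without. Members without a match may hold such letters outside the window searched, so the split holds for these windows only. Shown here are the promoters of KIF20A and CDC20, whose log2 fold changes were -2.71 and -2.46, of ECT2 and CDC25B, which changed least among members with an entry, and of HMMR, which holds the most matches. Capitals mark CHR letters and CCAAT boxes on either strand, each sequence runs 5′ to 3′ along the strand of its gene, and in HMMR a CCAAT box and its reverse complement overlap. KIF20A is at chr5:138178862-138179161 on the forward strand, CDC20 at chr1:43358731-43359030 on the forward strand, ECT2 at chr3:172750476-172750775 on the forward strand, CDC25B at chr20:3786701-3787000 on the forward strand, and HMMR at chr5:163460382-163460681 on the forward strand.
KIF20A: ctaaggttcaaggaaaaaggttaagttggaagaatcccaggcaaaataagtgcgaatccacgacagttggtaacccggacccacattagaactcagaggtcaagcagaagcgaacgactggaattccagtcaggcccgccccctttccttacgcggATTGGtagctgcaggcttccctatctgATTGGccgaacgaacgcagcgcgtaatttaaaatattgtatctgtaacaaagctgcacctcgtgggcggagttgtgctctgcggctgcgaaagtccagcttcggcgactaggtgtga
CDC20: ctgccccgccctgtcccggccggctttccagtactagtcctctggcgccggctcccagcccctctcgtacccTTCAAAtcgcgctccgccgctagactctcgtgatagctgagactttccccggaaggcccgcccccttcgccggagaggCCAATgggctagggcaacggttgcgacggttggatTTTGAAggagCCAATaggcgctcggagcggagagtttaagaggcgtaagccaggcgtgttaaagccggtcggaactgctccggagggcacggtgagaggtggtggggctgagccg
ECT2: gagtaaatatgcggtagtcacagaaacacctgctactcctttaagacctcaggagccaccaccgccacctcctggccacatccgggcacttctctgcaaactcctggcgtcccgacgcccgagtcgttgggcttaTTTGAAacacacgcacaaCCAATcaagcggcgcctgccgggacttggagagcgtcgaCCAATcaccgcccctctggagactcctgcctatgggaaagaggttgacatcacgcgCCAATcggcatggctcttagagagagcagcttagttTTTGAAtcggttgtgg
CDC25B: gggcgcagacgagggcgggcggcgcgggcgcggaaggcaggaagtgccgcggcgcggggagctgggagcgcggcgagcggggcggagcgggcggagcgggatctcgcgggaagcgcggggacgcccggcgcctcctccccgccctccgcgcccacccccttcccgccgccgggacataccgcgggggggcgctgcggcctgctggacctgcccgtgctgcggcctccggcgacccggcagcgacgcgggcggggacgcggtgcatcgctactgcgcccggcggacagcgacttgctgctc
HMMR: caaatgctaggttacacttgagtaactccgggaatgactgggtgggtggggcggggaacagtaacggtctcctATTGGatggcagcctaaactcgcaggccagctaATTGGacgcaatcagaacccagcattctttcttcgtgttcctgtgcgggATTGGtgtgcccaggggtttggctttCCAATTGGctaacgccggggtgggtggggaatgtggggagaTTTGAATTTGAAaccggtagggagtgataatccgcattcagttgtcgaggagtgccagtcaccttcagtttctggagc
KIF20A holds 2 CCAAT boxes and no CHR letters in this window, CDC20 holds 2 of each, and ECT2, among the members that changed least, holds 2 CHR matches and 3 CCAAT boxes. CDC25B holds neither.

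In MDA-MB-231 cells, the same dose of CKI was compared with untreated cells. No member was called lower or higher by DESeq2, among 866 genes called in either direction. By edgeR no member was called either, where 2.21% of the 13999 genes tested were lower and 3.76% higher. At an unadjusted p under 0.05, 15 members were lower and 4 higher in edgeR, and at an adjusted p alone 9 were lower and 4 higher, where 18.8% and 17.4% of all genes tested were. The median of the members was -0.09 and their log2 fold changes lay between -0.53 (KIF20A) and 0.52 (NEK2). Without untreated replicate 1 the median was -0.029, and again no member passed both thresholds. At an adjusted p alone, more than 4 members were then higher, so that the balance of directions depended on this library. Among them were CDK1 (0.35), CDC25C (0.48), BUB1 (0.48), TTK (0.32) and NEK2 (0.61). Members then lower included MYBL2, KIF20A, PLK1, TPX2, BIRC5, NDC80, CDC20 and UBE2C.

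With all libraries, KIF20A, the member with the largest fall in A431, was also the lowest here. It had 179.7, 142 and 139 CPM in untreated MDA-MB-231 cells and 104, 109.7 and 104 CPM with CKI, a difference of -0.53 log2 units (SE 0.0955, adjusted p = 0.00104) without overlap. NEK2, a centrosome kinase, was higher, with 69.4, 58.9 and 55.8 CPM untreated and 87.9, 87.0 and 88.5 CPM with CKI, a difference of 0.52 log2 units (SE 0.0783, adjusted p = 0.000322). Without untreated replicate 1 the differences were -0.40 for KIF20A and 0.61 for NEK2. MYBL2 then lay below KIF20A, at -0.60 (adjusted p = 4.66e-10). SPC24 and BUB1 followed NEK2 at 0.45 and 0.37, and were at 0.42 and 0.48 without that replicate.

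CDK1 had 327, 201 and 180.3 CPM in untreated MDA-MB-231 cells and 252, 241 and 235 CPM with CKI, and the groups overlapped, with untreated replicate 1 the highest of all. Without that replicate the difference was 0.35 log2 units (adjusted p = 2.3e-06). UBE2C had 336, 272 and 261 CPM untreated and 258, 244 and 237 CPM with CKI, a difference of -0.23 log2 units (SE 0.0852, adjusted p = 0.049) that was -0.11 (adjusted p = 0.0445) without untreated replicate 1. For FOXM1 the values were 83.4, 106 and 106 CPM untreated and 92.3, 96.2 and 103 CPM with CKI, which overlapped.

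The difference between the lines was itself tested, as the interaction of cell line and CKI in a fit of those libraries of A431 and MDA-MB-231 that were untreated or had CKI alone. The change under CKI was lower in A431 for 42 of the 45 members, where 9.62% of the 14848 genes tested were called in that direction and 8.87% in the other. The median interaction was -1.88, and that of all genes tested -0.01. It was -2.67 for SPC24, -2.42 for UBE2C and -2.42 for AURKB. Leaving out any 1 of the 12 libraries, untreated MDA-MB-231 replicate 1 included, left the count at 42. The members not called were CDC25B at -0.15, BUB3 at -0.56 and ECT2 at -0.85, the same 3 that missed the threshold for CKI in A431. Without untreated MDA-MB-231 replicate 1 they were at -0.06, -0.71 and -0.99. Across the 45 members, the changes under CKI in the 2 lines had a Spearman's rho of 0.31, given as a description with no library in common.

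**Figure D3:**
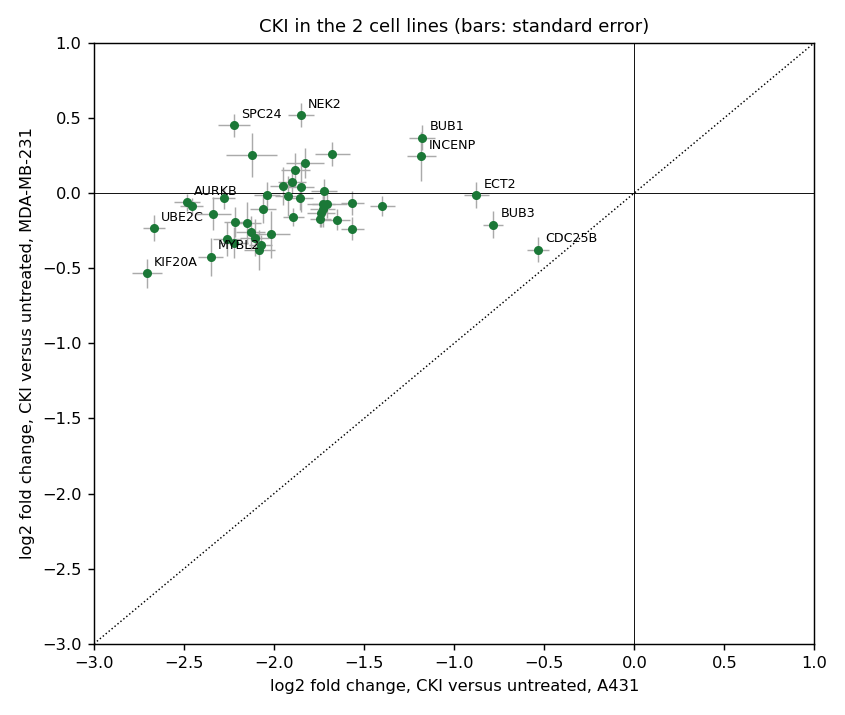
Log2 fold change under CKI against untreated cells in A431 (horizontal axis) and in MDA-MB-231 (vertical axis) for the 45 members, with bars of 1 standard error and a dotted line of equal change. The members spread between -2.71 and -0.53 along the horizontal axis and between -0.53 and 0.52 along the vertical axis, and CDC25B, BUB3 and ECT2 lie nearest to the line of equal change.

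Doxorubicin was compared with untreated A431 cells to show what a DNA-damaging drug does to the same genes. Of the 45 members, 5 were called lower (11.1%), where 14.3% of all genes tested were, so that the share of the list was not above that of all genes. DESeq2 called 2 members lower and none higher, among 7207 genes called in either direction. With edgeR no member was called higher, where 23% of all genes tested were, with 6 at an unadjusted p under 0.05. The median of the members was -0.48. At an adjusted p alone, 36 members were lower and 6 higher, where 39.9% and 40.7% of all genes tested were. This group shifts with the scaling, since with library size alone the median of all genes tested was 0.36 and that of the members -0.13, so that relative to all genes the members were lower under either scaling.

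BUB1B (BUBR1), the checkpoint component that inhibits CDC20, had the largest fall. Its level was 93.0, 95.9 and 92.4 CPM in untreated cells and 32.5, 33.9 and 35.3 CPM with doxorubicin, and it fell by 1.47 log2 units (SE 0.0762, adjusted p = 4.45e-14). The other members called lower were TPX2 at -1.10, SPC24 at -1.06, KIF4A at -1.05 and NDC80 at -1.004. BUB1B shares 10.2% of its annotated exonic bases with other annotated genes. The same share is 12.8% for PLK1 and 15.9% for FOXM1.

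Several members went the other way with doxorubicin. CDC25B had 254, 237 and 239.7 CPM untreated and 458, 408 and 434 CPM with doxorubicin, a difference of 0.83 log2 units (SE 0.0622, adjusted p = 3.05e-11). NEK2 differed by 0.63 log2 units (SE 0.0650, adjusted p = 8.86e-09) and MYBL2 by 0.35 log2 units (SE 0.0636, adjusted p = 3.29e-05), none of them past the fold change threshold. MYBL2 had 326, 318 and 326 CPM with doxorubicin, above every untreated library. CDK1 had 149, 153 and 153 CPM, again above every untreated library, with a difference of 0.25 log2 units (SE 0.0673, adjusted p = 0.00176).

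When CKI was added to doxorubicin, the levels fell again. Against doxorubicin alone, 36 of the 45 members were called lower, where 8.03% of all genes tested were called lower and 6.89% higher, and all 45 lay below in every library, as did 33.6% of all genes tested. The median was -1.26. CDK1 had 44.3, 45.4 and 48.8 CPM with the combination, a difference of -1.72 log2 units (SE 0.0707, adjusted p = 2.95e-15). MYBL2 had 103, 96.8 and 97.9 CPM, with a difference of -1.71 log2 units (SE 0.0660, adjusted p = 1.04e-15), and CDC25B had 173, 177 and 171 CPM, with a difference of -1.32 log2 units (SE 0.0629, adjusted p = 3.69e-14). CDC25B, which missed the threshold under CKI alone, thus passed it against doxorubicin, from a higher level. KIF20A and AURKB had the largest falls, at -2.26 and -2.17, and the 9 members not called lay between -0.997 (INCENP) and -0.38 (BUB3).

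Against CKI alone, the members took a larger share of all counts with the combination, at 0.214% to 0.218% against 0.163% to 0.170%, without overlap. A single member, NEK2, was called higher and none lower, where 16.6% of all genes tested were higher and 9.06% lower. DESeq2 called 2 members higher and none lower, among 5210 genes called in either direction. At an unadjusted p under 0.05 in edgeR, 10 members were lower and 20 higher. The adjusted p alone gave 8 lower and 19 higher, where 34.8% and 38.5% of all genes tested were. The median was 0.12. NEK2 had 18.7, 18.8 and 18.1 CPM with CKI and 35.8, 36.8 and 39.7 CPM with the combination, a rise of 1.01 log2 units (SE 0.0741, adjusted p = 3.84e-11). Its call was lost when replicate 3 of the combination was left out. MYBL2, at 0.99, stayed just under the threshold, and SPC24, at -0.82, and BUB1B, at -0.54, were the lowest.

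Against untreated cells, 39 of the 45 members were called lower with CKI and doxorubicin, where 13.8% of all genes tested were called lower and 21.7% higher, with a median of -1.83. KIF20A, at 10.2, 11.3 and 9.56 CPM, fell by 3.21 log2 units (SE 0.0856, adjusted p = 3.76e-19). SPC24, at 3.61, 3.44 and 3.67 CPM, fell by 3.04 log2 units (SE 0.0965, adjusted p = 6.82e-18), while it had 29.0, 31.0 and 28.4 CPM in untreated cells. The 6 members not called were NEK2, BUB1, BUB3, CDC25B, KIF23 and ECT2, between -0.97 (KIF23) and -0.33 (BUB3).

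The interaction of CKI and doxorubicin asks whether the 2 changes add on the log2 scale. It was called higher for 4 of the 45 members (8.89%), which is near the 8.56% of all genes tested. For none was it called lower, where 10.9% of all genes tested were. The median was 0.50. The 4 were CCNB1 at 1.17, UBE2C at 1.08, HMMR at 1.04 and PLK1 at 1.03, which means that the combination lay above the sum of the single changes. PLK1 shows the pattern by library. It had 182, 172 and 202 CPM untreated, 44.6, 45.6 and 43.0 CPM with CKI, 93.9, 95.6 and 98.2 CPM with doxorubicin and 49.2, 45.5 and 46.3 CPM with both, so that the combination overlapped with CKI alone and lay below doxorubicin alone. DESeq2 called the interaction higher for 3 members and lower for none, among 2981 genes called in either direction. At an unadjusted p under 0.05 in edgeR, 39 members were higher and 1 lower. The adjusted p alone gave 37 higher and 1 lower, where 31.4% and 26% of all genes tested were. The count was 2 without untreated A431 replicate 3 and 2 without replicate 1 of the combination, so that the number of members past the threshold rests on single libraries.

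**Figure D4:**
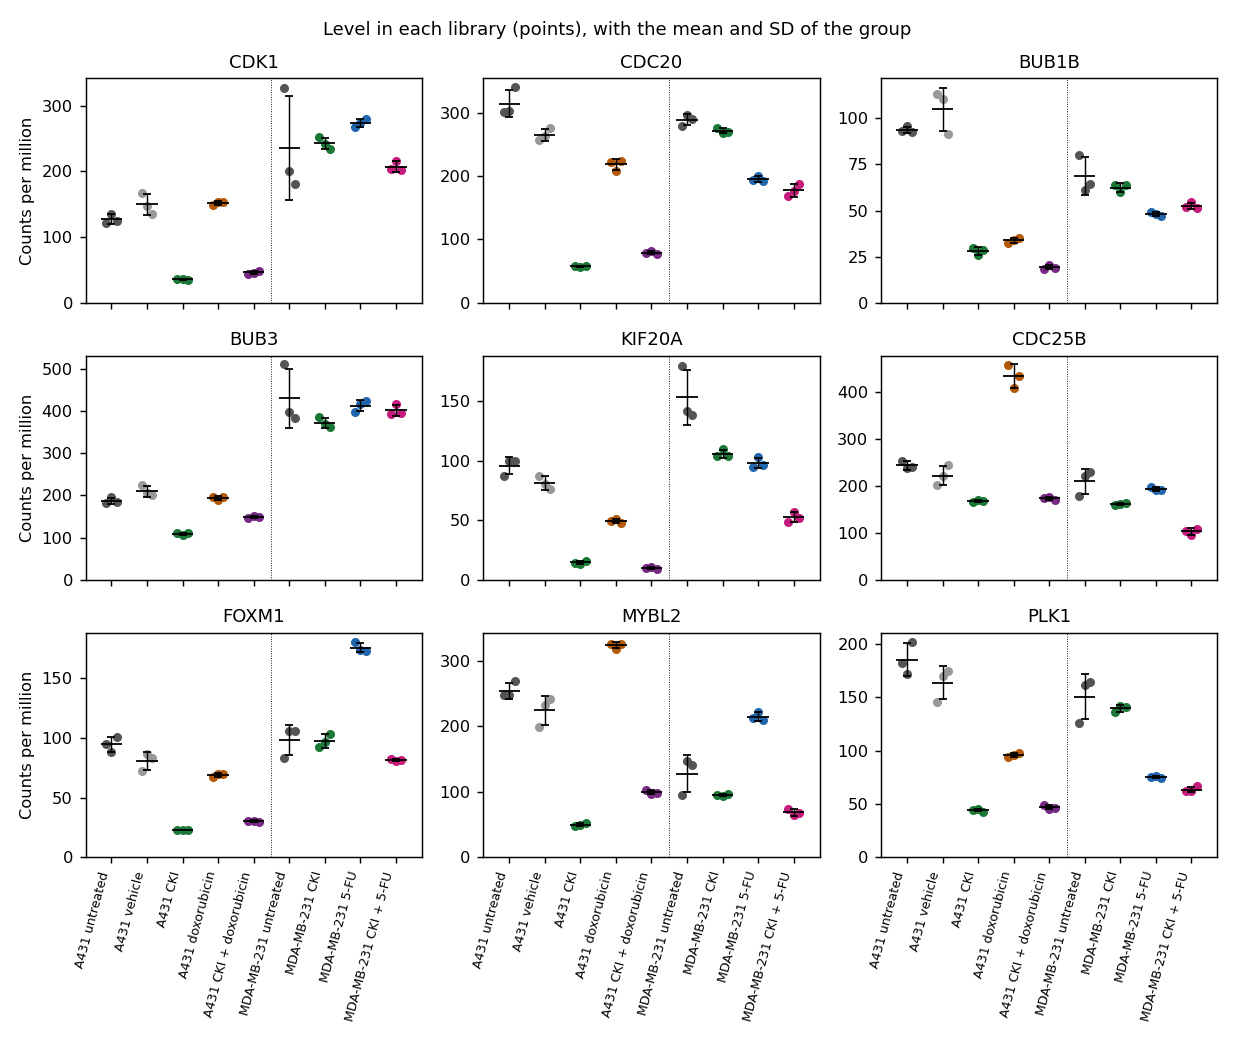
CPM (vertical axis, from 0) of 9 members in the 27 libraries, by group. Points are libraries, horizontal lines group means and error bars 1 SD, and a dotted line separates A431 from MDA-MB-231. CDK1, CDC20 and KIF20A are low in both A431 groups with CKI, CDC25B and MYBL2 are highest in A431 with doxorubicin, and FOXM1 is highest in MDA-MB-231 with 5-FU.

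With 5-FU in MDA-MB-231 cells, the members differed from untreated cells in both directions. DESeq2 called 1 member lower, PLK1, among 2009 genes called in either direction. No member passed both thresholds in edgeR, where 7.31% of all genes tested were lower and 6.01% higher. At an unadjusted p under 0.05, 18 members were lower and 9 higher, and at an adjusted p alone 18 were lower and 8 higher, where 28.5% and 28.6% of all genes tested were. The median was -0.11, and with library size alone it was 0.0245, so that the list as a whole had no stable direction. Without untreated replicate 1, 1 member was called lower, PLK1 at -1.11, with a median of -0.065, and leaving out 5-FU replicate 2 also gave 1.

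The members with the lowest values under 5-FU were PLK1, CENPE and CCNB1. PLK1 had 126, 162 and 164 CPM untreated and 75.8, 76.8 and 74.7 CPM with 5-FU, a difference of -0.99 log2 units (SE 0.0883, adjusted p = 1.79e-06). CENPE had 87.1, 71.2 and 78.1 CPM untreated and 42.8, 42.0 and 44.7 CPM with 5-FU, a difference of -0.87 log2 units (SE 0.0794, adjusted p = 2.3e-06). CCNB1 had 393, 296 and 289 CPM untreated and 184, 193 and 187 CPM with 5-FU, a difference of -0.79 log2 units (SE 0.0990, adjusted p = 2.87e-05). In all 3 genes the 5-FU libraries lay below every untreated library. Without untreated replicate 1 the differences were -0.79 for CENPE and -0.64 for CCNB1. AURKA, at -0.68, then lay below CCNB1.

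The members with the highest values under 5-FU were both transcription factors and the checkpoint gene MAD2L1. FOXM1 had 83.4, 106 and 106 CPM untreated and 179.9, 174 and 173 CPM with 5-FU, a difference of 0.84 log2 units (SE 0.0850, adjusted p = 5.33e-06). MYBL2 had 95.4, 147 and 141 CPM untreated and 213, 222 and 209.7 CPM with 5-FU, a difference of 0.75 log2 units (SE 0.126, adjusted p = 3e-04). MAD2L1 had 155, 108 and 105 CPM untreated and 181, 184 and 198 CPM with 5-FU, a difference of 0.61 log2 units (SE 0.125, adjusted p = 0.00123). The groups did not overlap in any of the 3, and untreated replicate 1 was the lowest library of the group for both factors and the highest for MAD2L1. Without it the differences were 0.73 for FOXM1, 0.58 for MYBL2 and 0.82 for MAD2L1. TTK, at 0.60, then lay above MYBL2.

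The addition of CKI to 5-FU was compared with 5-FU alone. Of the 45 members, 2 were called lower (4.44%), where 4.51% of all genes tested were called lower and 5.26% higher. The share of the list was thus not above that of all genes. The median of the members was -0.37. The adjusted p alone gave 26 members lower and 2 higher, where 24.5% and 25.9% of all genes tested were. Both transcription factors passed both thresholds. MYBL2 had 73.7, 64.1 and 67.9 CPM with the combination and fell by 1.65 log2 units (SE 0.129, adjusted p = 1.2e-06) from the 5-FU libraries given above, and FOXM1 had 82.0, 80.5 and 81.5 CPM and fell by 1.11 log2 units (SE 0.0855, adjusted p = 1.08e-06). In MYBL2 the combination lay below every library of the other 3 groups, and in FOXM1 it lay below every untreated library. ESPL1 followed at -0.98, while CENPE (0.48), BUB1 (0.34) and SPC25 (0.21) had the highest values.

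Against CKI alone, 3 members were called lower with the combination, where 2.54% of all genes tested were called lower and 1.26% higher, at a median of -0.47. With the adjusted p alone, 33 members were lower, where 20% of all genes tested were. PLK1 had 136, 142 and 141 CPM with CKI and 61.9, 62.4 and 66.5 CPM with both drugs and fell by 1.14 log2 units (SE 0.0888, adjusted p = 5.2e-06). INCENP fell by 1.01 log2 units (SE 0.166, adjusted p = 0.000598) and KIF20A fell by 1.01 log2 units (SE 0.0973, adjusted p = 1.68e-05). Across the genes tested, the fold changes of this comparison went with GC content (Spearman's rho -0.52). With offsets for GC content and transcript length, 2 members were called.

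Against untreated MDA-MB-231 cells, 4 members were called lower with CKI and 5-FU, where 4.76% of all genes tested were called lower and 4.29% higher, at a median of -0.50. KIF20A had 48.8, 57.0 and 52.2 CPM and fell by 1.54 log2 units (SE 0.0981, adjusted p = 2.19e-07), below every library of the other groups. PLK1 fell by 1.25 log2 units (SE 0.0889, adjusted p = 5.37e-07), CDC25B fell by 1.02 log2 units (SE 0.0850, adjusted p = 1.89e-06), and ESPL1 fell by 1.001 log2 units (SE 0.117, adjusted p = 2.7e-05), which put it at the threshold itself. At an adjusted p under 0.05 alone, 34 of the 45 were lower, where 23.7% of all genes tested were. Without untreated replicate 1, 5 were called lower and the median was -0.38, with KIF20A at -1.41, PLK1 at -1.36 and CDC25B at -1.12, and without replicate 2 of the combination 2 were called.

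The interaction of CKI and 5-FU was called lower for 3 of the 45 members, where 3.81% of all genes tested were called lower and 3.04% higher, with a median of -0.35. With the adjusted p alone it was lower for 19 members, where 14.3% of all genes tested were. It was -1.23 for MYBL2, -1.10 for FOXM1 and -1.06 for INCENP, the scaffold of the passenger complex. INCENP had 54.5, 97.2 and 96.9 CPM in untreated cells, where replicate 1 was far below the others, 93.8, 97.2 and 104 CPM with CKI, 86.8, 88.2 and 82.7 CPM with 5-FU and 49.95, 48.2 and 48.0 CPM with both. Without untreated replicate 1, MYBL2 alone passed both thresholds, at -1.05, while FOXM1 was at -0.99 and INCENP at -0.83.

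**Figure D5:**
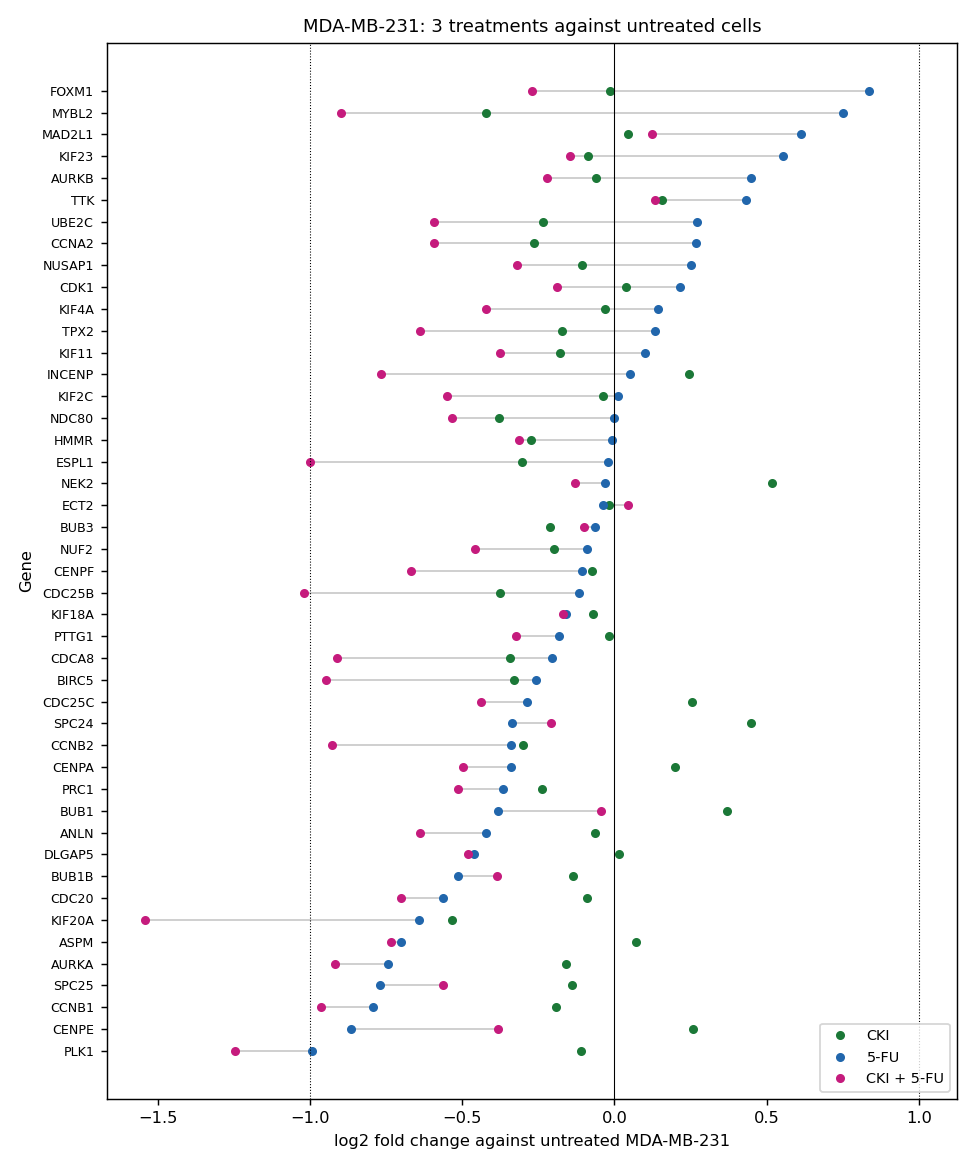
Log2 fold change against untreated MDA-MB-231 cells (horizontal axis) of the 45 members (vertical axis, ordered by the change with 5-FU) for CKI (green), 5-FU (blue) and CKI with 5-FU (magenta), with grey lines joining 5-FU to the combination and dotted lines at the fold change threshold. FOXM1 and MYBL2 are at 0.84 and 0.75 with 5-FU and at -0.27 and -0.90 with the combination, and KIF20A is the lowest with the combination, at -1.54.

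Other genes of the same pathway were counted from 5 lists, to be read against the 10.4% of all genes tested that were called lower and the 12% called higher under CKI in A431. Under CKI in A431, 26 of 33 other kinetochore and centromere genes were called lower, with a median of -1.56, and 10 of 21 condensin and cohesin genes, with a median of -0.80. ZWINT, a kinetochore scaffold protein, went from 163, 171 and 167 CPM to 24.1, 25.1 and 25.1 CPM and fell by 2.753 log2 units (SE 0.0578, adjusted p = 3.94e-20). MIS12, another kinetochore protein, was at 0.05. Of 17 subunits and regulators of the anaphase-promoting complex, 4 were called lower, at a median of -0.61, with FBXO5 (EMI1), an inhibitor of the complex, at -1.88 and the subunit ANAPC16 at 0.33. The activator CDC20 and the enzyme UBE2C, at -2.46 and -2.67, lay below the median of this list.

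Of 21 genes of the MuvB, pocket protein, E2F and NF-Y group, 7 were called lower and 1 higher under CKI in A431, at a median of -0.63. E2F1, an activator of genes of DNA replication, had 106, 108 and 102 CPM untreated and 24.3, 26.2 and 25.5 CPM with CKI and fell by 2.06 log2 units (SE 0.0715, adjusted p = 6.52e-17). RBL2 (p130), the pocket protein that joins MuvB in the repressive DREAM complex, rose by 1.10 log2 units (SE 0.0777, adjusted p = 1.44e-11). In MDA-MB-231, CKI lowered 2 genes of this list, E2F2 at -1.46 and E2F8 at -1.08, where 2.21% of all genes tested were called lower.

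The list of brakes on CDK1 went in both directions. Under CKI in A431, 3 of its 8 genes were called lower and 3 higher. CDKN1A, the inhibitor of cyclin-dependent kinases induced by p53, had 82.7, 80.9 and 88.5 CPM untreated and 469, 507 and 495 CPM with CKI, a rise of 2.55 log2 units (SE 0.0583, adjusted p = 1.07e-19). PKMYT1, a kinase that places inhibitory phosphates on CDK1, went from 169, 148 and 175 CPM to 22.0, 30.3 and 30.6 CPM and fell by 2.57 log2 units (SE 0.150, adjusted p = 4.8e-13). CDKN1A was also higher with doxorubicin (1.72) and with 5-FU in MDA-MB-231 (1.54), where it had 134, 159.7 and 162 CPM untreated and 439.5, 447 and 444 CPM with 5-FU. With CKI and 5-FU together it had 174, 171 and 175 CPM and fell by 1.36 log2 units (SE 0.0688, adjusted p = 4.47e-08) from 5-FU alone.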

How the data were processed

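RNA was sequenced in 27 libraries of 9 groups with 3 replicates each. Per the labels and the study's methods, the authors trimmed unstranded paired-end reads with Trim Galore 0.3.7 and aligned them to hg19 (GRCh37) with STAR 2.5.3a. The deposited values are raw counts per gene, without normalization, and the counting tool and annotation are not given in the sources used here. Of 24566 rows, 24422 had a symbol for their Entrez ID in RefSeq (GRCh38.p14), and all 27 columns were matched to a sample. Exon overlap, transcript length and GC content came from a GRCh37 annotation.

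Counts were tested with edgeR 4.0.16 in R 4.3.3 (TMM, filterByExpr, glmQLFit, glmQLFTest), in 1 fit per cell line over all its groups. The fit of A431 tested 15881 genes, that of MDA-MB-231 13999 and that of both lines 14848. A gene was called at a Benjamini-Hochberg adjusted p under 0.05 together with a log2 fold change beyond 1 in size, and p-values were adjusted over all genes tested. Counts of members at an unadjusted p have no share of all genes, and are given next to those at an adjusted p. CPM values carry TMM factors, and RPKM used the exonic bases of a gene. Total counts per library were 17757206 to 22809339.

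The members and lists were chosen with earlier results of these data known. The genes named were drawn from members fixed by role, from the 3 lowest and 3 highest of a comparison, and from the 2 lowest and 2 highest genes of each other list. Other genes were named after their values were seen. The 5 other lists hold 17, 33, 21, 21 and 8 genes. The alternatives were DESeq2 1.42.0, RLE factors, library size alone, no filter, at least 10 counts in every library, only the groups compared, the adjusted p alone, a replicate block, offsets for GC content and length (lowess, span 0.3), both together, 1 row per Ensembl ID, the vehicle group as the control of A431 and each library left out in turn. On simulated counts, 192 of 14961 genes tested were changed for CKI in A431 and 199 of 13826 for CKI in MDA-MB-231. For the interactions, 196 of 14994 were changed for CKI with doxorubicin and 199 of 14550 for CKI with the cell line. Of the changed genes, 94.8% were recovered for CKI in A431 and 97.5% for CKI in MDA-MB-231. The share was 88.3% for the interaction with doxorubicin and 86.4% for that with the cell line. Unchanged genes made up 0%, 0%, 1.14% and 0.578% of the calls, in that order. Recovery of genes near the fold change threshold was not tested separately. Recovery with as many changed genes as in the data was not tested.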

Additional observations from a re-analysis of the deposited data

Results flagged for a closer look

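An effect differed between groups, by the test of an interaction, in 3 sets of members. The change under CKI was lower in A431 than in MDA-MB-231 for 42 of 45 members, where 9.62% of all genes tested were called in that direction, with the largest differences at -2.67 (SPC24), -2.42 (UBE2C) and -2.42 (AURKB). The change under CKI was less negative beside doxorubicin than without it for 4 of 45 members in A431 (8.89%), which is near the 8.56% of all genes tested, namely CCNB1 at 1.17, UBE2C at 1.08, HMMR at 1.04 and PLK1 at 1.03. The change under CKI was lower beside 5-FU than without it for 3 of 45 members in MDA-MB-231, where 3.81% of all genes tested were called in that direction, namely MYBL2 at -1.23, FOXM1 at -1.10 and INCENP at -1.06. All values are interaction terms on the log2 scale from edgeR's quasi-likelihood test at an adjusted p under 0.05 with a size beyond 1. Without untreated MDA-MB-231 replicate 1, MYBL2 alone of the last 3 stayed past both thresholds, at -1.05. FOXM1 was then at -0.99 and INCENP at -0.83.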

How the results depend on the processing

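The counts of members called lower were steady for CKI in A431, against untreated cells and against the vehicle control, for CKI with doxorubicin against doxorubicin and against untreated cells, and for the difference between the lines in the change under CKI. Leaving out each library in turn, they ranged from 42 to 42, 43 to 43, 36 to 38, 39 to 40 and 42 to 42. Several of the smaller counts were less steady, and some of the members in them lay near the fold change threshold. Leaving out each library gave 4 to 6 lower members with doxorubicin, 0 to 1 higher with CKI and doxorubicin against CKI (0 without replicate 3 of the combination), 2 to 5 higher for the interaction of CKI and doxorubicin (2 without untreated replicate 3 and 2 without replicate 1 of the combination), 0 to 1 lower with 5-FU (1 without untreated replicate 1 and 1 without 5-FU replicate 2), 2 to 3 for CKI with 5-FU against 5-FU, 2 to 3 against CKI, 2 to 5 against untreated cells (2 without replicate 2 of the combination), 1 to 3 for the CKI and 5-FU interaction (1 without untreated replicate 1), and 0 to 3 lower with 1 to 2 higher between the untreated lines, where 0 were lower without untreated MDA-MB-231 replicate 1, 3 without its replicate 3, 2 without its replicate 2 or without A431 replicate 2, and 1 was higher without any 1 of the 3 A431 replicates or without MDA-MB-231 replicate 1.

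At an adjusted p alone, without a fold change limit, the lower and higher members were 10 and 15 for the vehicle control, 36 and 6 for doxorubicin, 8 and 19 for CKI with doxorubicin against CKI, 9 and 4 for CKI in MDA-MB-231, 18 and 8 for 5-FU, 26 and 2 for CKI with 5-FU against 5-FU, 1 and 37 for the interaction of CKI and doxorubicin, and 22 and 10 between the untreated lines. Lower members alone numbered 33 for CKI with 5-FU against CKI, 34 against untreated cells and 19 for the CKI and 5-FU interaction.

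With doxorubicin, 2 members were lower by DESeq2, with RLE factors or with only the groups compared, 1 with at least 10 counts in every library, 1 lower and 1 higher with library size alone, and 8 with offsets for GC content and length, with or without the replicate block. For CKI with doxorubicin against CKI, 2 were higher by DESeq2, RLE factors, library size alone, at least 10 counts or only the groups compared, and 0 without a filter. The interaction of CKI and doxorubicin gave 1 higher with library size alone and 2 with at least 10 counts. With 5-FU, 1 was lower by DESeq2, RLE factors or without a filter. With library size alone, CKI with 5-FU gave 1 lower against CKI and 2 against untreated cells. Between the untreated lines, 1 was higher by DESeq2, RLE factors, library size alone, no filter, at least 10 counts, only the groups compared, and with the offsets with or without the block, while 2 were lower with library size alone or only the groups compared and 0 with the offsets. The medians that changed sign were -0.030 for the vehicle control with offsets, with or without the block, and 0.0245 for 5-FU with library size alone. The cause of these changes was not tested.

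Libraries with the same replicate number did not deviate together (mean r -0.004 over 30 pairs in A431 and -0.038 over 18 in MDA-MB-231), so the numbers were not taken as pairs. With the replicate block, 3 members were lower between the untreated lines and 42 for CKI in A431, and no other count moved by more than 1.5 times. With library size alone the median of all genes tested moved to 0.11 for CKI in A431. Every member passed the filter on low counts, and no alternative varied the depth.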
